A study of Mus musculus with 6 samples.

Results

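The genes described here are 53 genes that mark monocytes and macrophages, read in cultured mouse megakaryocytes. They comprise 27 genes of resident tissue macrophages, 4 lysosomal proteases, 4 genes of MHC class II antigen presentation and 18 genes of monocytes. They were listed by name, and each was read from the brightest probe set that the array annotation gives to that gene alone. All 53 of 53 genes have such a probe set, of 18193 genes with one in the whole series, and 50 of the 53 were among the 11260 genes bright enough to test.

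The series holds 6 arrays of megakaryocytes, the large bone marrow and fetal liver cells that shed platelets. Fetal liver cells were cultured with thrombopoietin, the hormone that drives megakaryocyte growth, and mature megakaryocytes were taken from a bovine serum albumin gradient, so other cells of the culture can remain. The mice were on a mixed C57BL/6xSv129 background. The control group holds 2 FOG1+/- cultures (replicates 1 and 2), which carry a single intact copy of FOG1, and 1 FOG1+/+ culture (replicate 3). The other group holds 3 FOG1-/- ki/ki cultures (replicates 1 to 3), written FOG1 ki/ki below. The Zfpm1 gene makes FOG1, a partner protein of GATA1 and other GATA factors without which megakaryocytes do not form. The labels do not say what the knocked-in allele encodes or whether pups were pooled, and no age is given. The labels call the cultures biological replicates without naming litter or day, so p-values measure the spread between these samples, whatever its source.

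Macrophages arise in the fetal liver from erythromyeloid and monocyte precursors, live on CSF1 signalled through Csf1r, and form the centre of the erythroblastic island, where they take up expelled nuclei and recycle iron. They recognise dying cells through complement C1q and the receptors Mertk, Axl, Timd4 and Trem2, and digest what they take up with lysosomal cathepsins. Monocytes are the circulating relatives of macrophages and are known by the chemokine receptors Ccr2 and Cx3cr1, the endotoxin receptor Cd14, Fc receptors and Toll-like receptors. In a megakaryocyte preparation these transcripts can come from other cells present, and in bulk RNA fewer macrophages and less RNA per macrophage cannot be told apart.

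Array signals are intensities scaled by the authors to a trimmed mean of 150 per array, and the median signal ran from 5.93 to 12.3. The signal ratio of the 3' to the 5' probe sets of Gapdh, a measure of RNA integrity, ran from 1.20 to 2.38 and was highest in FOG1 ki/ki replicate 3. Zfpm1 itself read 430, 862 and 1137 in control and 480, 868 and 1274 in FOG1 ki/ki replicates 1 to 3, a log2 difference of 0.11, so its level did not separate the groups, and since the altered stretch of the gene is not given, this is no check of the labels. The megakaryocyte genes Pf4 (platelet factor 4; log2 difference -0.00) and Itga2b (integrin alpha IIb; log2 difference -0.07) were bright on every array. They are among the most level of 10 tested megakaryocyte markers, which ran down to -0.52 for Gp1bb and -1.01 for Tubb1. Same-numbered cultures deviated together across genes, so each FOG1 ki/ki culture is also set beside the control of its number, giving 3 pairs.

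Most of the monocyte and macrophage genes read lower in the FOG1 ki/ki cultures. The mean was below control for 50 of the 53 genes and for 47 of the 50 tested, where 44.9% of all genes tested were below. Ncf1, Vcam1 and Ccl6 were the 3 above it. The median log2 difference, on log2(signal + 16), was -0.71 over the 53 genes and -0.72 over the 50 tested, beside 0.03 over all genes tested. No single gene passed the test at an adjusted p of 0.05. limma with Benjamini-Hochberg adjustment over 11260 genes called 0 of the 50, where it called 0.151% of all genes (0.0533% lower and 0.0977% higher), and the smallest adjusted p was 0.486, for Trem2. With the replicate number as a block limma again called 0 of 50, where 0.835% of all genes were called, and the smallest adjusted p was 0.118, for Mertk. At an unadjusted p of 0.05, 4 of the 50 were lower without the block (3.69% of all genes) and 30 of the 50 with it (10.4% of all genes), and 0 were higher in either fit (3% and 7.99% of all genes). The 4 were Trem2, Tlr7, Mertk and Cd68. Leaving out replicate 1 of either group took that count to 1, and leaving out pair 1 took it to 0. It was 10 and 11 without pairs 2 and 3, 20 when control replicate 3 was dropped and 21 when FOG1 ki/ki replicate 2 was. With the block, 30 became 14 without pair 1. The share of all genes past that threshold in each of these reduced fits is not given here. These counts therefore do not show how the 50 genes stood beside all genes in those fits. All the FOG1 ki/ki arrays lay below all the controls for 6 of 50 genes (4.93% of all genes), namely Adgre1, Cd68, Mertk, Ms4a7, Tlr7 and Trem2, and lay above them for 0 of 50 (6.32% of all genes).

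**Figure D1:**
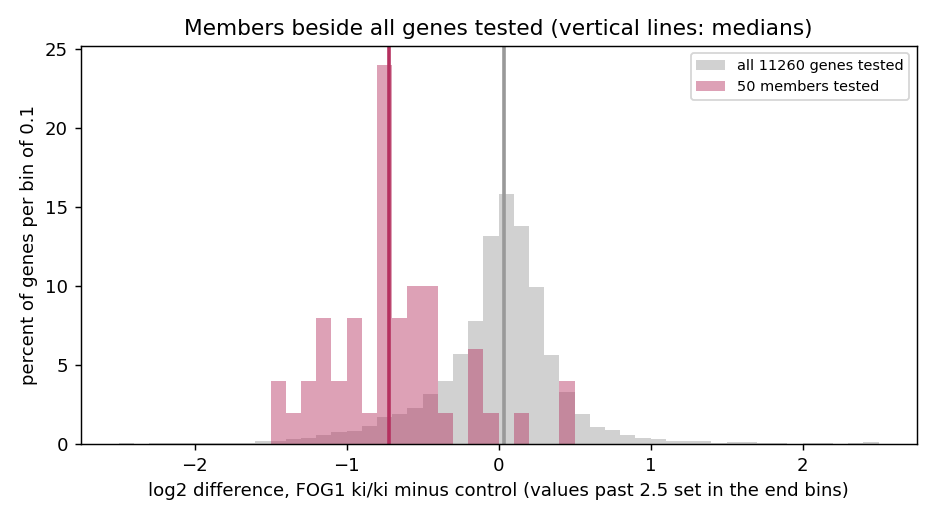
Histogram of the log2 difference, FOG1 ki/ki minus control, for the 50 tested monocyte and macrophage genes and for all 11260 genes tested, as percent of genes per bin of 0.1; vertical lines are the medians. The median of the 50 genes lies at -0.72 and that of all genes at 0.03.

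The size of the difference varied between pairs. The median over the 53 genes was -1.33 in pair 1, -0.45 in pair 2 and -0.21 in pair 3, and 51, 49 and 39 of the 53 genes were below their control in these pairs. Over all genes tested the same medians were -0.00, 0.04 and 0.05, and 5630, 4980 and 5134 of 11260 genes were below control. The difference was negative in every pair for 33 of the 50 tested genes, beside 19.3% of all genes, and positive in every pair for 0 of the 50, beside 24.8%. The FOG1 ki/ki replicate 1 array was the lowest of the 6 for 26 of the 53 genes, and the control replicate 2 array was the highest for 39 of the 53. Over the 53 genes, dropping FOG1 ki/ki replicate 1 left a median of -0.45, dropping control replicate 2 left -0.41, and dropping pair 1 left -0.38, the omissions that shrank it by over 1.5 times. Control replicate 1 also stands apart by sex: Xist, expressed from the inactive X chromosome, read 807 there and 0.3 to 4.6 on the other 5 arrays, and the Y-linked Eif2s3y read 2.5 there and 841 to 1186 on the others. These sex genes were looked up after values were seen. The cultures of pair 1 therefore differ in sex as well as genotype, and the part of sex in the pair 1 values was not tested. Pair 3 alone has a FOG1+/+ control, so control genotype and replicate number cannot be told apart.

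**Figure D2:**
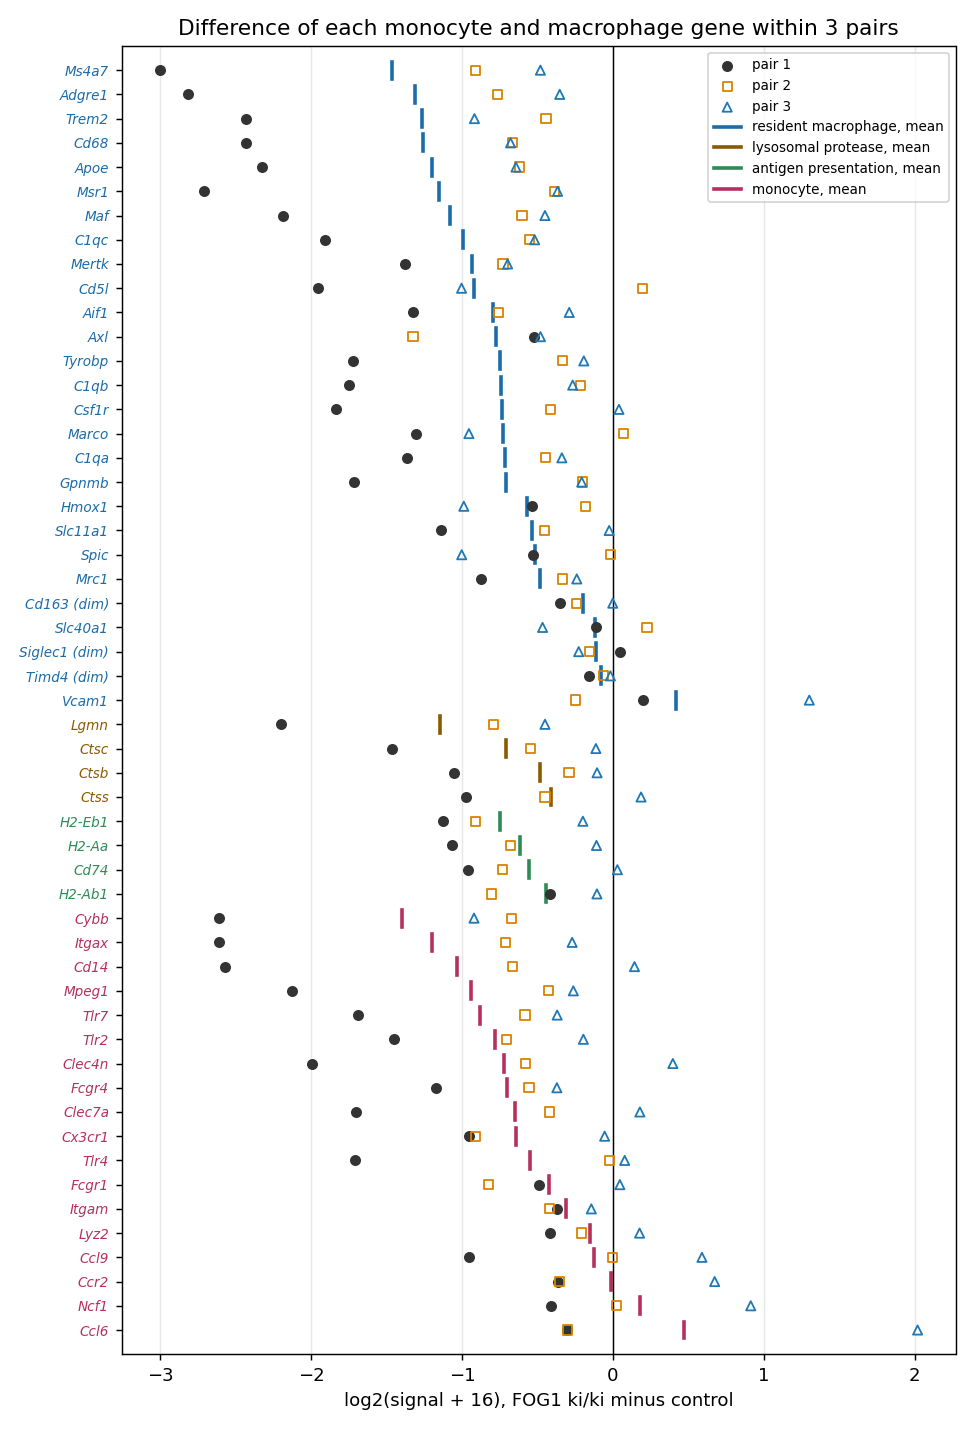
Difference in log2(signal + 16), FOG1 ki/ki minus control, for each of the 53 genes in pair 1 (circles), pair 2 (squares) and pair 3 (triangles), with the mean of the pairs as a bar coloured by class. Most pair 1 circles lie farthest left, with a median of -1.33, and several monocyte genes lie right of 0 in pair 3.

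Among the genes of macrophage identity, all 8 of 8 read below control, with a median of -0.94, and 7 of the 8 did so in every pair. Csf1r, the CSF1 receptor, was the exception: its signal was 1289, 2512.5 and 1267 in control replicates 1 to 3 and 349, 1880 and 1303 in FOG1 ki/ki replicates 1 to 3, a log2 difference of -0.74. Pairs 1 and 2 differed by -1.84 and -0.42 and pair 3 by 0.04, so the Csf1r groups overlapped. Adgre1, which encodes the F4/80 antigen, read 448, 643 and 436 in control and 49.8, 372 and 338 in FOG1 ki/ki. Its groups did not overlap, with -1.31 as the log2 difference and 0.64 as its SE (limma adjusted p = 0.839).

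Cd68, a lysosomal membrane glycoprotein of macrophages, read 1102, 1532 and 1014 in control and 191, 959 and 628 in FOG1 ki/ki (mean 1216 ± 277 against 593 ± 385, SD, n = 3). Every FOG1 ki/ki array was below every control, and the log2 difference was -1.26 (SE 0.52; limma adjusted p = 0.707). Ms4a7, a four-span membrane protein of tissue macrophages, had the largest difference of the 53 genes, -1.47. It read 552, 1005 and 649 in control and 54.7, 527 and 461 in FOG1 ki/ki, again without overlap. The FOG1 ki/ki replicate 1 array was the lowest of the 6 for 7 of these 8 identity genes. Without it the difference was -0.48 for Adgre1, -0.61 for Cd68, -0.52 for Ms4a7 and -0.033 for Csf1r.

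Of the transcription factors in the list, Maf, which drives the resident macrophage programme, read 490, 749 and 284 in control and 94.9, 487 and 203 in FOG1 ki/ki (log2 difference -1.08). Spic, needed for iron-recycling red pulp macrophages, was dim at 23.8, 10.3 and 23.9 against 11.6, 10 and 3.89 (-0.52). For both genes every pair was below 0 while the groups overlapped. Aif1, the actin-binding protein IBA1, differed by -0.79, and Gpnmb, a lysosome-associated glycoprotein, by -0.71. Gpnmb was bright on 5 of the arrays, at 1695 to 2453, and read 554 in FOG1 ki/ki replicate 1.

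The genes of dying-cell recognition and uptake number 15, of which 12 were tested, and 11 of the 12 read below control. C1q opens the classical complement pathway, and its 3 chains are encoded by C1qa, C1qb and C1qc, which lie next to each other among the protein-coding genes of the genome. C1qb read 2585, 3428 and 2109 in control and 756, 2955 and 1750 in FOG1 ki/ki, a log2 difference of -0.74. C1qc read 435, 731 and 326 in control and 104, 494 and 223 in FOG1 ki/ki, a difference of -0.99. All 3 chains were lower in every pair, C1qa by -1.37, -0.45 and -0.34, and for all 3 the groups overlapped.

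The 250 bases before the start of C1qb (GRCm38.p6 chr4:136886201-136886450, minus strand) and of C1qc (chr4:136892915-136893164, minus strand) are shown because these neighbours read lower in the same pairs and both windows hold a match to AGGAAGT, a form of the site of PU.1, the transcription factor of the myeloid lineage. The sequences are from RefSeq, 5′ to 3′ along the gene, and the capitals mark the match, which lies on the opposite strand and so reads ACTTCCT.
C1qb: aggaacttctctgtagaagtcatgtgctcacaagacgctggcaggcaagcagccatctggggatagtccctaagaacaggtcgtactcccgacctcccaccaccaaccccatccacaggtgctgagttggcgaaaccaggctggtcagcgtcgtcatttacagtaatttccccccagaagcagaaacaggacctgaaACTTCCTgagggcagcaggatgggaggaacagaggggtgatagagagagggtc
C1qc: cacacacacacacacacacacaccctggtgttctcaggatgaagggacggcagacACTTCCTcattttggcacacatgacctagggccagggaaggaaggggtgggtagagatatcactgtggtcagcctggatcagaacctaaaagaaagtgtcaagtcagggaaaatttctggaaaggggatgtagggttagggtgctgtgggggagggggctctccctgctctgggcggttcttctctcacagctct
The match starts 53 bases before the C1qb start and 195 bases before the C1qc start. The RefSeq promoter table held 36 of the 53 genes. AGGAAGT, searched on both strands, was in 9 of these 36 (C1qb, C1qc, Ccl6, Ctsc, Fcgr1, Fcgr4, Lyz2, Mrc1 and Spic), and in 7.686% of the 32851 promoters of the table or 8.796% of its genes. The motif was chosen after these promoters were looked at, and a match is a run of letters, not a measured binding site.

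Among the uptake receptors, Trem2, a lipid-sensing receptor, read 210, 125 and 125 in control and 25.8, 87.7 and 58.9 in FOG1 ki/ki. The highest FOG1 ki/ki value was below the lowest control, and the difference came to -1.27 (SE 0.40; limma adjusted p = 0.486). Its signalling partner Tyrobp (DAP12) read 1548, 2062 and 1079 against 458, 1634 and 942, a difference of -0.75 with overlap. Mertk, a kinase receptor for the bridging proteins that coat dying cells, read 64, 106 and 78.2 against 14.8, 57.4 and 42.1. Its groups did not overlap, and the log2 difference was -0.93 (SE 0.38; limma adjusted p = 0.699, and 0.118 with the block).

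Axl, a relative of Mertk, differed by -0.78, and is the gene of this set whose pair 2 difference, -1.33, exceeded those of pairs 1 and 3, -0.53 and -0.48. Msr1, a scavenger receptor for modified lipoprotein, read 562, 545 and 178 in control and 72.4, 413 and 134 in FOG1 ki/ki (-1.15). The mannose receptor Mrc1 differed by -0.48, and both were lower in every pair. Marco, another scavenger receptor, and Cd5l, a macrophage-secreted protein, differed by -0.73 and -0.92, but in pair 2 by 0.07 and 0.19. Vcam1, the adhesion molecule by which island macrophages hold erythroblasts, was above control on average (0.42), at 318, 387 and 12.3 against 367, 324 and 53.7. Both replicate 3 cultures were dim, and the pairs differed by 0.20, -0.25 and 1.30: without replicate 3 in both groups the difference was -0.024, and without control replicate 3 alone, which leaves its dim partner in, -0.81.

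The remaining 3 uptake genes were too dim to test. Timd4, a phosphatidylserine receptor of resident macrophages, read 3.67 to 9.8 over the 6 arrays, the sialic acid receptor Siglec1 read 2.61 to 7.3, and Cd163, which takes up haemoglobin, read 0.0812 to 4.8. At these signals a difference between groups was not detectable.

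The 4 genes of iron and lipid handling were all below control on average. Apoe, the lipid carrier apolipoprotein E, read 510, 956 and 403 in control and 89, 616 and 252 in FOG1 ki/ki, a log2 difference of -1.20 that was negative in every pair. Slc11a1 (NRAMP1), a phagosomal metal pump, read 817, 801 and 553 against 361, 581 and 544 (-0.54). Hmox1, which opens the haem ring, read 837, 1782 and 473 against 571, 1569 and 231 (-0.57). The iron exporter Slc40a1 (ferroportin) was close to level, at 173, 180 and 182 against 159, 213 and 127 (-0.12). Hmox1 and Slc40a1 changed sign when FOG1 ki/ki replicate 3 was left out, to 0.086 and 0.045.

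The lysosomal proteases were below control in all 4 of 4, with a median of -0.60. Legumain (Lgmn), an asparaginyl endopeptidase, read 480, 702 and 268 in control and 91.7, 399 and 192 in FOG1 ki/ki, and differed by -1.15 (limma adjusted p = 0.806). Cathepsin C (Ctsc), which activates granule serine proteases, differed by -0.71, and cathepsin B (Ctsb) by -0.48. Lgmn, Ctsc and Ctsb were lower in every pair. Cathepsin S (Ctss), which trims the invariant chain, read 2357, 3537 and 1841 against 1191, 2584 and 2097, lower in pairs 1 and 2 and higher in pair 3 (0.19).

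The 4 of 4 MHC class II genes read below control on average. H2-Aa and H2-Ab1 encode the chains of the I-A molecule, H2-Eb1 the beta chain of I-E, and Cd74 the invariant chain that guides them to the endosome. Cd74 read 1308, 1767 and 665 in control replicates 1 to 3 and 666, 1058 and 679 in FOG1 ki/ki (log2 difference -0.55). H2-Aa read 639, 713 and 316 against 296, 440 and 292 (-0.62). H2-Eb1 read 450, 560 and 221 against 197, 290 and 191 (-0.75). In these 3 genes the FOG1+/+ control of replicate 3 lay with the FOG1 ki/ki arrays, near the lowest, while the FOG1+/- controls were the highest arrays. H2-Ab1 read 305, 791 and 275 against 225, 446 and 254 (-0.44), and turned to 0.026 without control replicate 2. The 4 genes had medians of -1.01, -0.77 and -0.11 in pairs 1 to 3.

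With the block and without replicate 3, limma called Cd74 (log2 difference -0.84, adjusted p = 0.0130), H2-Eb1 (-1.02, 0.0311), H2-Aa (-0.87, 0.0420) and Ctss (-0.71, 0.0293) lower, 4 of the 50 genes, where 3.19% of all genes were called in that fit. With all 3 pairs their adjusted p in the blocked limma fit was 0.157 to 0.347. The fit without replicate 3 was the only setting that called any of the 50 genes. It leaves out the pair with the FOG1+/+ control, where Cd74, H2-Eb1, H2-Aa and Ctss differed by 0.03, -0.20, -0.11 and 0.19.

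The 250 bases before the start of H2-Aa (GRCm38.p6 chr17:34287824-34288073, minus strand) and of H2-Eb1 (chr17:34305617-34305866, plus strand), from RefSeq, are shown. They were chosen because these neighbouring genes were called together, though only in the blocked fit without replicate 3. Both windows also carry the paired letters of the class II promoter. The capitals mark GCAACT, part of the X box bound by the RFX complex, followed by CTGATTGG, a form of the Y box bound by NF-Y.
H2-Aa: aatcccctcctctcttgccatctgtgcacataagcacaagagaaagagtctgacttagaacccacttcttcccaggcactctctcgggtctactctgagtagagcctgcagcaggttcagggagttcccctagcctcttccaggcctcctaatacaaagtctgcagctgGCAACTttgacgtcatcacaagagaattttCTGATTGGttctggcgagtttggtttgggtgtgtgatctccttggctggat
H2-Eb1: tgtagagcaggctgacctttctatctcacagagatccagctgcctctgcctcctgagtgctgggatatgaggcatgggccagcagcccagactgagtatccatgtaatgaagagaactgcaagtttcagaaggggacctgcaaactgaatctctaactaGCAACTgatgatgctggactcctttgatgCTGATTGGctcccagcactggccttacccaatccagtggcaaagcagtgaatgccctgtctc
GCAACT followed within 40 bases by CTGATTGG, on either strand, was in 2 of the 36 genes, these 2. In the whole table it was in 8 of the 27025 genes (0.0296%) and 8 of the 32851 promoters searched (0.02435%). Genes outside the 36, such as Cd74, were not searched, so the counts do not show whether those genes hold the pair. Alone, CTGATTGG was in 2 of the 36 genes, beside 4.433% of all genes of the table and 3.829% of its promoters. GCAACT was in 5 of 36, beside 10.31% of genes and 9.013% of promoters. These letters too were chosen after looking at the promoters, and no binding was measured here.

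A list of other class II genes held both signs: it covers regulators of class II transcription such as Ciita, the peptide-loading H2-DM and H2-O chains, proteases and the costimulator Cd80. Of its 13 genes 11 were tested, 6 were below control, the median was -0.00 and 0 were called by limma (0 with the block). H2-Ob and H2-Oa, the chains of the H2-O molecule that restrains peptide exchange, were above control, at 72.7, 53.3 and 67.1 against 137, 207 and 191 for H2-Ob, with log2 differences of 1.26 and 1.31 (limma adjusted p = 0.242 and 0.465). Cathepsin H (Ctsh), an aminopeptidase, lay below it at -1.18. On every FOG1 ki/ki array H2-Ob and H2-Oa were above every control, opposite to the means of the 4 class II genes.

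Of the 8 Fc, lectin and Toll-like receptors of monocytes, 8 of 8 read below control on average, with medians of -1.69, -0.58 and 0.06 in pairs 1 to 3. Tlr7, the endosomal receptor for single-stranded RNA, read 85.1, 70.9 and 49.9 in control and 15.4, 42 and 35 in FOG1 ki/ki. It was the monocyte gene whose groups did not overlap, and it differed by -0.88 (SE 0.33; limma adjusted p = 0.633). Tlr2, which detects bacterial lipoprotein, read 222, 348 and 75.8 against 71, 207 and 64.2 (-0.78), and Tlr4, which detects endotoxin, 151, 123 and 46.8 against 35, 121 and 50.3 (-0.55). Without pair 1 Tlr4 stood at 0.027.

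Cd14, which hands endotoxin to Tlr4, read 1142, 1275 and 79.2 in control and 179, 797 and 89.1 in FOG1 ki/ki. It was low in both replicate 3 cultures and in FOG1 ki/ki replicate 1, and its log2 difference of -1.03 carried an SE of 1.10. The Fc receptors Fcgr1 and Fcgr4, which bind antibody, differed by -0.42 and -0.70, and only Fcgr4 did so in every pair (-1.17, -0.56 and -0.37). Without control replicate 2 Fcgr1 turned to 0.15. The fungal-glycan lectins Clec7a (Dectin-1) and Clec4n (Dectin-2) differed by -0.65 and -0.72, and in pair 3 by 0.18 and 0.40.

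The chemokine and chemokine receptor genes showed the smallest mean differences, with a median of -0.07 over 4 genes. Ccr2, which draws monocytes out of marrow, read 208, 418 and 7.43 in control and 158, 324 and 21.4 in FOG1 ki/ki. The replicate 3 arrays of both groups were far below the others, and the log2 difference was -0.01 (SE 1.16), 0.22 with a pseudocount of 1 and 0.024 after quantile normalization. Cx3cr1, the fractalkine receptor, read 32.3, 59.6 and 3.42 against 8.9, 24.2 and 2.7 (-0.64). Ccl6, a chemokine of myeloid cells, read 1603, 1816 and 225 against 1295, 1473 and 959, so its difference of 0.47 came from pair 3 (2.02) and was -0.48 without control replicate 3. Ccl9, the neighbour of Ccl6, differed by -0.12, with pairs of -0.95, -0.00 and 0.59. Of these 4 genes Cx3cr1 was below control in every pair.

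Among the integrins and killing genes, 5 of 6 read below control. Cybb, the gp91phox subunit of the NADPH oxidase, read 560, 626 and 98 in control and 78.5, 387 and 44.2 in FOG1 ki/ki, lower in every pair. It differed by -1.40 (SE 0.86; limma adjusted p = 0.935). Its cytosolic partner Ncf1 (p47phox) went the other way at 415, 553 and 479 against 309, 562 and 917 (0.18), and turned to -0.19 without FOG1 ki/ki replicate 3, which held the highest value. Itgax (CD11c), an adhesion receptor, read 269, 521 and 112 against 30.6, 312 and 90.5 (-1.20), and its genomic neighbour Itgam (CD11b) was dim at 4.3 to 27.7 (-0.31). Mpeg1, the pore-forming protein perforin-2, read 1459, 2043 and 1170 against 321, 1515 and 973 (-0.94). Lysozyme (Lyz2) differed little, at 2591, 3191 and 2498 against 1940, 2757 and 2826 (-0.15, SE 0.17).

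Set side by side, the classes had like mean differences and unlike patterns across pairs. The median was -0.74 for resident macrophage genes, -0.60 for proteases, -0.59 for antigen presentation and -0.64 for monocyte genes. In pair 3 the medians were -0.37, -0.11, -0.11 and 0.06. There 8 of the 18 monocyte genes were below control, beside 18 and 17 of 18 in pairs 1 and 2. Of all 11260 genes tested, 5134 were below control in pair 3, a share near that of the monocyte genes. In pairs 1 and 2 these counts were 5630 and 4980. Being lower in every pair was seen in 19 of 24 tested resident macrophage genes and in 8 of 18 monocyte genes, beside 19.3% of all genes. The difference between classes was not tested, since genes are not replicates. Without FOG1 ki/ki replicate 1 the resident macrophage median was -0.48, the protease median -0.35 and the monocyte median -0.38, and without pair 1 they were -0.40, -0.26 and -0.27. Without control replicate 2 the antigen presentation median was -0.33, the monocyte median -0.31 and the protease median -0.41 (main value -0.60). The monocyte median was also -0.39 without FOG1 ki/ki replicate 3, -0.43 without control replicate 1 and -1.09 without control replicate 3, and larger values arose without FOG1 ki/ki replicate 2 for resident genes (-1.19) and without control replicate 3 for antigen presentation (-0.96) and proteases (-0.90).

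**Figure D3:**
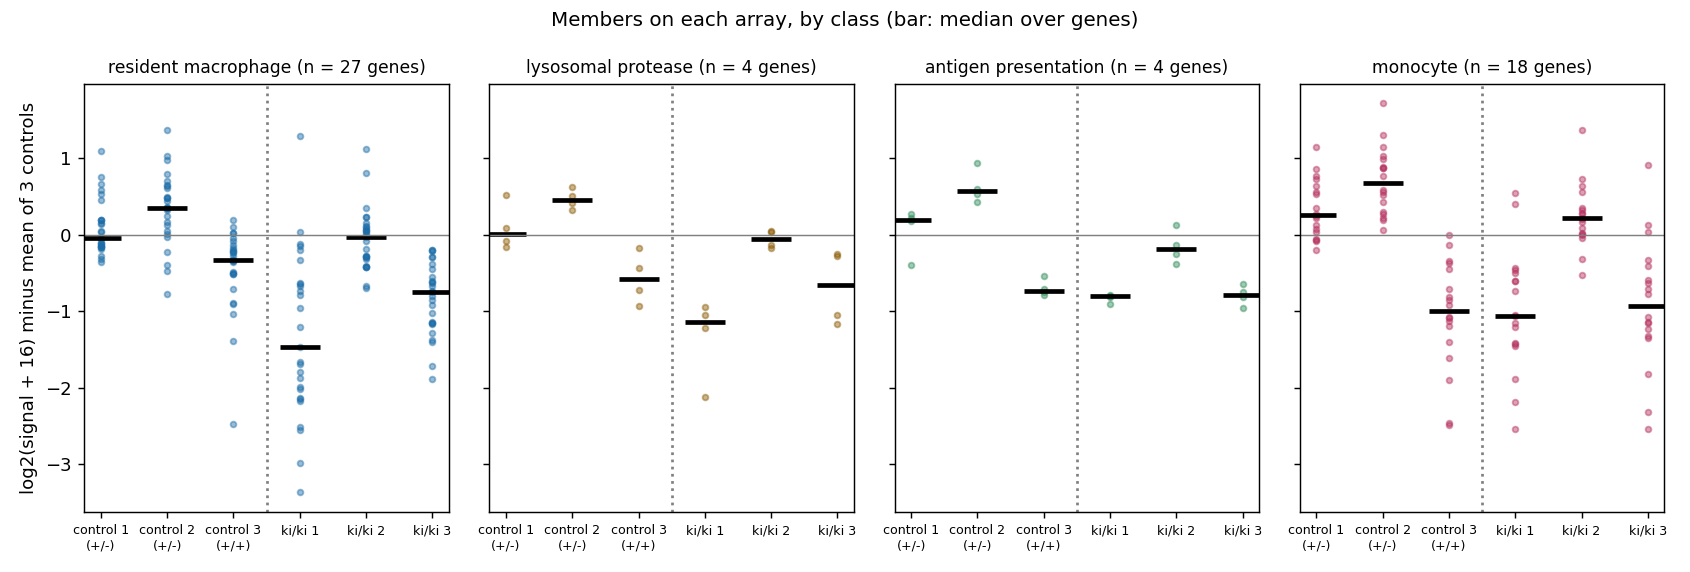
Each gene's log2(signal + 16) on each array minus its mean over the 3 controls, in a panel per class, with a bar at the median over genes. The resident macrophage medians are -0.04, 0.35 and -0.33 in control and -1.47, -0.03 and -0.74 in FOG1 ki/ki; the monocyte medians of both replicate 3 arrays are low, at -0.99 and -0.93.

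The monocyte genes also differed between replicates within a genotype. Relative to the mean of replicates 1 and 2, replicate 3 lay at a median of -1.49 for the monocyte genes in control and -0.47 in FOG1 ki/ki. For resident macrophage genes these values were -0.49 and -0.05, and for all genes tested -0.04 and -0.00. Replicate 3 was the lower in both groups for 13 of 18 monocyte, 11 of 27 resident macrophage and 4 of 4 antigen presentation genes, and for 30 of all 53, beside 37.9% of all genes tested. For the identity genes in FOG1 ki/ki replicate 3 lay at a median of 0.57 above the mean of the other cultures, and below replicate 2 for 8 of 8. It was above replicate 1 for all of them but Spic, which read 11.6, 10 and 3.89 in FOG1 ki/ki replicates 1 to 3. Markers of several other cells moved the same way. All 12 of 12 neutrophil markers were lower in replicate 3 of both groups, with medians of -3.56 and -2.78. So were 10 of 10 fibroblast markers (-2.08 and -1.09) and 5 of 5 eosinophil markers (-2.61 and -2.55). The same held for 6 of 10 mast cell and basophil markers and 2 of 10 megakaryocyte markers. The part of any of these cells, of the control genotype and of the replicate in these values was not tested.

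**Figure D4:**
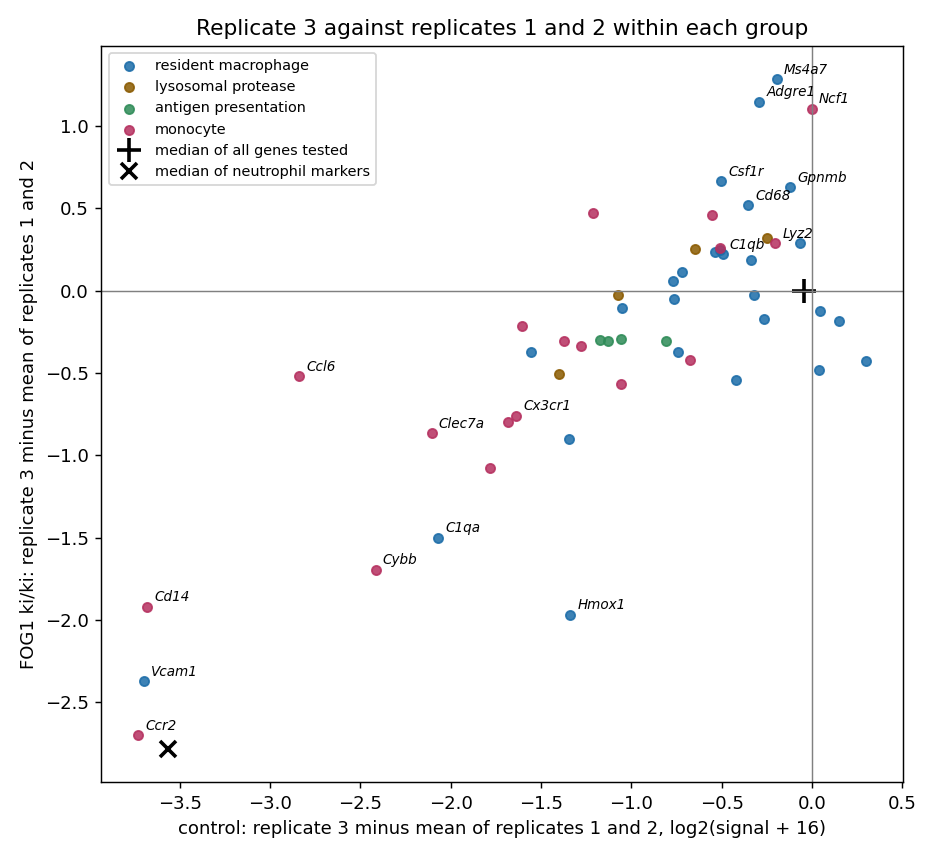
Replicate 3 minus the mean of replicates 1 and 2 in log2(signal + 16), control on the horizontal and FOG1 ki/ki on the vertical axis, for the 53 genes by class; the plus sign is the median of all genes tested and the diagonal cross the median of 12 neutrophil markers (-3.56 and -2.78). Cd14, Ccr2 and Vcam1 lie far to the lower left, near the neutrophil markers, while Adgre1, Ms4a7 and Csf1r lie above 0 in FOG1 ki/ki.

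Other probe sets of the same genes gave the same sign. The 53 genes have 104 probe sets of their own, of which 87 passed the brightness filter, and 20 genes had more than 1 that passed. All 37 of the 37 further probe sets had the sign of the chosen one, 32 were below control and 21 were below in all 3 pairs. The size depended on the probe set, in either direction. Ctsb differed by -0.48 on the chosen probe set and by -0.94, -1.04 and -1.19 on the further ones. Cybb differed by -1.40 on the chosen probe set and by -1.33 and -0.53 on the further ones.

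Further macrophage genes, from lists of related function, were set beside the 53. Of 29 other macrophage surface genes 19 were tested, 16 were below control, the median was -0.70 and 0 were called by limma. Among them Cd83, an activation antigen (-1.11), Sirpa, the CD47 receptor (-0.91), and the lectin Clec4d (-0.65) had the smallest p. Of 18 lysosomal enzymes 16 were tested and 15 were below control, with a smaller median of -0.28 and 0 called; lysosomal acid lipase (Lipa) stood at -0.97 and cathepsin A (Ctsa) at -0.54. Of 14 Toll-like receptor signalling genes 10 were tested and 7 were below control (median -0.48, 0 called), among them the RNA sensors Tlr13 (-1.24) and Tlr3 (-0.78). The surface genes thus lay near the median of the 53 and the enzymes nearer to that of all genes.

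Of 13 inflammatory monocyte genes 9 were tested and 7 were below control (median -0.45, 0 called), a median near that of the Toll-like receptor signalling genes. The inflammatory monocyte genes below control included coagulation factor F10 (-1.11) and the calcium-binding S100a4 (-0.94). The lists that follow had medians closer to 0 and held genes of both signs. Medians were -0.06 for 8 tested iron and haem genes, where the haem transporter Slc48a1 stood at 0.50, -0.10 for 6 Fc receptor and ITAM genes, where the inhibitory receptor Fcgr2b stood at 0.88, and 0.31 for 8 genes of the CSF1 and GM-CSF axis, where the receptor subunit Csf2rb2 stood at 0.68. For 7 NADPH oxidase and phagosome genes the median was -0.0050, with the proton pump subunit Atp6v0d2 at -1.43. limma called 0 genes of these lists with or without the block.

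Of 12 macrophage transcription factors 10 were tested, 6 were below control, the median was -0.06 and Pparg was called with the block. Pparg, a nuclear receptor of lipid-handling macrophages, read 284, 306 and 532 in control and 809, 957 and 1484 in FOG1 ki/ki (log2 difference 1.50; limma adjusted p = 0.223, and 0.0118 with the block). Of 17 monocyte chemokines and cytokines 15 were tested, 11 were below control, the median was -0.34 and Il10 was called with the block. Il10, an anti-inflammatory cytokine, read 8.3, 8.6 and 1.49 in control and 80.6, 111 and 59.9 in FOG1 ki/ki (2.16; limma adjusted p = 0.0636, and 0.0157 with the block). Il1b, an inflammatory cytokine, stood at 0.54 and the chemokine Cxcl16 at -1.20. Both Pparg and Il10 were above every control on every FOG1 ki/ki array, opposite to most of the 53 genes.

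Markers of other cells varied beside the 53 genes. The summed signal of the 53 was 24079 to 48485 in control and 14682 to 36325 in FOG1 ki/ki, lowest in FOG1 ki/ki replicate 1. Fibroblast markers were below control in 10 of 10 (median -0.73, 0 called), with sums of 2590 to 10337 in control and 2504 to 5833 in FOG1 ki/ki, highest in replicate 2 of each group, as the 53 genes were. Megakaryocyte markers were below control in 10 of 10 tested with a median of -0.19 and 0 called, and their sums were 21004 to 27670 and 19036 to 24499. Mast cell and basophil markers were above control in 8 of 8 tested (median 1.04, 1 called with the block), with sums of 729 to 4107 and 6233 to 8063. Neutrophil sums were 2962 to 17742 and 4309 to 18390, and eosinophil sums 44.0 to 2230 and 110 to 2092, lowest in replicate 3 of each group. The part of any of these cells in the differences of the 53 genes was not tested. Of 12 dendritic cell markers 4 were tested, and sums were 246 to 385 in control and 263 to 403.5 in FOG1 ki/ki, with FOG1 ki/ki replicate 1 the highest array.

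**Figure D5:**
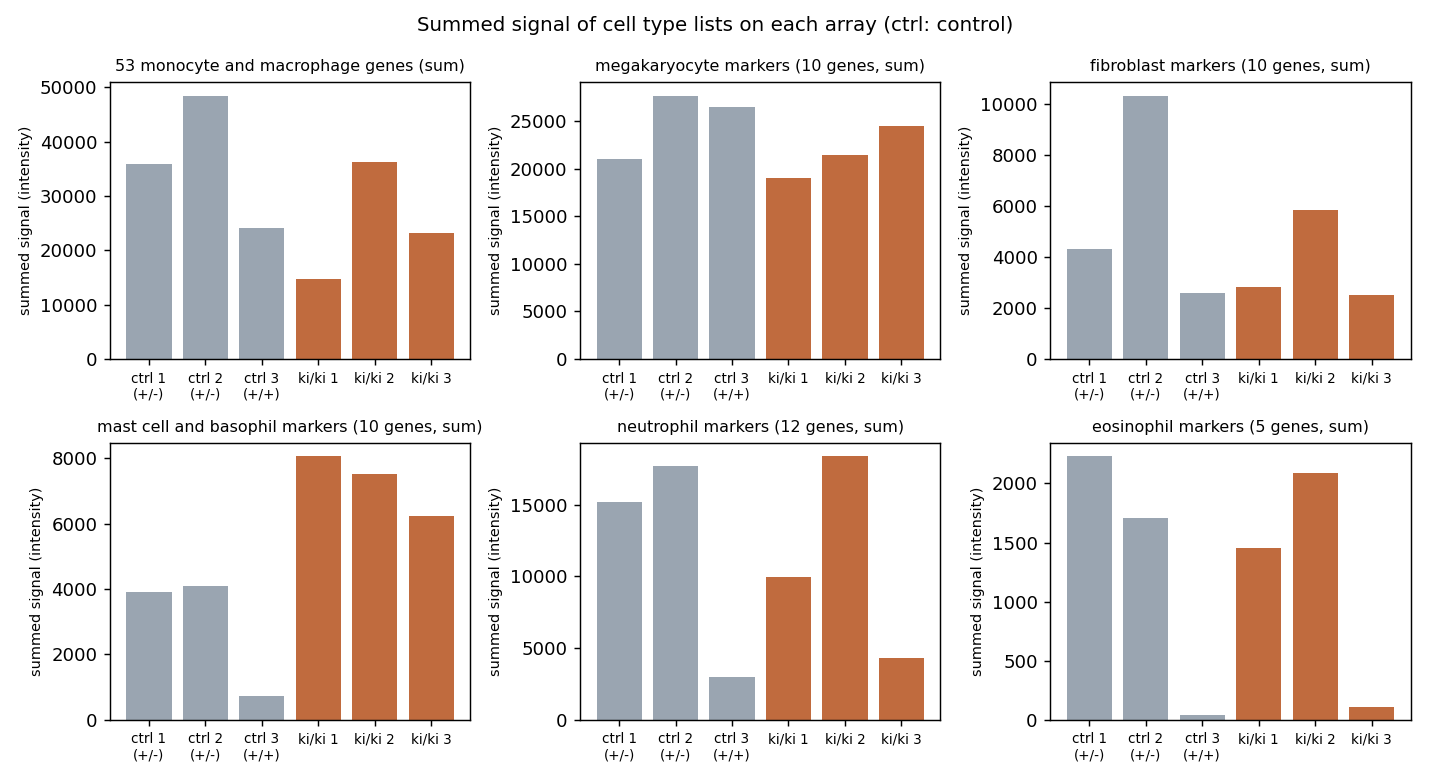
Summed signal (intensity) on each array of the 53 monocyte and macrophage genes and of 5 lists of cell type markers, with control in grey and FOG1 ki/ki in orange. The 53 genes sum to 14682 in FOG1 ki/ki replicate 1 and to 48485 in control replicate 2; mast cell and basophil markers are higher on each FOG1 ki/ki array than on any control.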

How the data were processed

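The 6 arrays were analysed from the authors' deposited value table, which holds MAS5 intensities on a linear scale, per the submitters' processing notes; the MAS5 version and settings are not given in the sources used here. Amplification used the NuGEN WT-Ovation Pico kit, per the labels' protocols. The deposited intensities have a 2% trimmed mean of 150 on every array; replicates 1 and 2 are rounded to 1 decimal and replicate 3 is not. The platform annotation names 1 gene for 34958 of 45101 probe sets, several for 932 and none for 9211.

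Values were taken as log2(signal + 16), so differences of dim genes are understated. After dropping the dimmer 50% of probe sets (by mean log2 value), the brightest probe set per gene was kept (11260 genes). Then limma 3.58.1 (R 4.3.3; lmFit, eBayes with trend) compared 3 FOG1 ki/ki with 3 control arrays, with Benjamini-Hochberg adjustment over all genes at 0.05. SE is limma's standard error. Levels were ranked between probe sets only for the filter and the choice per gene. The summed signals add the levels of different probe sets, so bright genes weigh most in them. The script was tested on simulated data. That there are 3 arrays per group limits the precision.

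The replicate numbers of the labels were used as pairs: deviations from group means correlated at 0.438, 0.648 and 0.597 for equal numbers over 22518 probe sets, and at 0.0229 or less for unequal ones. Deviations cancel out within a group, so the low values for unequal numbers are not separate evidence of pairing. The fit with the replicate block was an alternative, as were another pseudocount, no or a stricter filter, quantile normalization, median centring, the mean of a gene's probe sets and leaving out arrays or pairs.

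Genes and lists were chosen with earlier results of these data known. Any of the 53 genes could be named, and from each other list of related function up to 3 genes with the smallest unadjusted p, plus Itga2b, Pf4 and Zfpm1. Promoters are the 250 bases before the start in RefSeq (GRCm38.p6), and those on chr18 were left out of the search.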

Additional observations from a re-analysis of the deposited data

How the results depend on the processing

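The medians of the 53 genes and of each class kept a negative sign under every alternative run, and between settings that kept all arrays the median of the 53 ran from -0.76 (pseudocount 1) to -0.53 (pseudocount 64). Leaving out arrays or pairs, it ran from -1.02 to -0.38, and 43 to 49 of 50 tested genes were below control. limma called 0 of the 50 in every setting but 1, the replicate block without replicate 3, which called 4. Over all genes the count of 17 became 8 with a pseudocount of 1, 1 without the filter, 3 with the brightest 25% of probe sets, 94 with the replicate block, 0 to 2 when an array or pair was left out, and 207, 128 and 359 with the block without replicates 1, 2 and 3. All 17 remained among the 94. The block changed no call among the 53 genes, and Il10 and Pparg were the named genes outside them that it called. Il10 was also called after quantile normalization (2.20) and median centring (2.17). The causes of these changes were not tested, other than that fewer arrays were fitted.

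Signs turned for Ccr2 (0.22 with a pseudocount of 1, 0.024 after quantile normalization) and Pf4 (0.011 after median centring). With arrays or pairs left out, the log2 difference spanned 0 for Ccl6 (-0.48 to 0.99), Ccl9 (-0.58 to 0.29), Ccr2 (-1.26 to 0.89), Fcgr1 (-1.02 to 0.15), H2-Ab1 (-0.73 to 0.026), Hmox1 (-1.26 to 0.086), Lyz2 (-0.31 to 0.025), Ncf1 (-0.19 to 0.57), Slc40a1 (-0.29 to 0.058), Tlr4 (-0.98 to 0.027), Vcam1 (-0.81 to 1.21), Itga2b (-0.33 to 0.13), Pf4 (-0.087 to 0.079) and Zfpm1 (-0.28 to 0.48). With the replicate block, signs turned for Ccl9 (0.29), Ccr2 (0.16) and Tlr4 (0.027) without replicate 1, for Ccr2 (0.16), Itga2b (0.13) and Pf4 (0.079) without replicate 2, and for Ccl6 (-0.30), Ncf1 (-0.19), Slc40a1 (0.058) and Vcam1 (-0.024) without replicate 3. For dim genes such as Cd163, Siglec1 and Timd4, signal near background limits what can be seen.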

Other observations

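Across the 50 tested monocyte and macrophage genes, the pair differences resembled each other only loosely. Pearson's r over these genes was 0.26 between pairs 1 and 2, 0.44 between pairs 1 and 3 and 0.10 between pairs 2 and 3, and Spearman's rho was 0.27, 0.42 and 0.10. Over all 11260 genes tested r was 0.50, 0.37 and 0.56. These are descriptions across genes of the same arrays, and genes are not independent replicates. Genes with large differences in pair 1, such as Ms4a7 (-3.01), Adgre1 (-2.82) and Msr1 (-2.71), stood at -0.48, -0.35 and -0.37 in pair 3.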
